A study of Homo sapiens with 10 samples.

Results

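K562 cells, an established human leukaemia line of erythroid character that carries the BCR-ABL fusion, were compared under 2 inhibitors of transcription. JQ1 displaces BET proteins, such as BRD2, from acetylated chromatin, and AZ-5576 inhibits CDK9. All human genes were compared, drug against drug, in 4 of the 10 libraries of the series: 2 from cells treated with JQ1 at 1 µM and 2 from cells treated with AZ-5576 at 1 µM. Treatment lasted 2 h, and 100 µM 4-thiouridine was present in its last 1 h. A further 2 libraries from cells given DMSO, with the same timing and label, show the level without a drug. In the main fits the remaining 4 libraries, treated with A-485 or actinomycin D, entered only the estimate of the spread between libraries and the filter on low counts. Every group is this 1 cell line, the doses are equal in µM only, and the labels do not say whether the 2 libraries of a group came from separate cultures. The p-values therefore measure only the spread between these libraries, which may be technical.

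CDK9, with its cyclin T partner, is the kinase of P-TEFb, which releases RNA polymerase II from the pause just downstream of start sites. The 7SK particle, with HEXIM1, LARP7 and MEPCE, holds P-TEFb inactive. BET inhibitors are known in many cell lines to release P-TEFb from the 7SK particle and to lower genes driven by strong enhancers, among them MYC. In erythroid cells such enhancers serve the factors GATA1, GATA2, TAL1, LMO2, NFE2 and MYB.

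SLAM-seq reads RNA made during the labelling hour by its T-to-C conversions. Such reads are called labelled RNA here, and all reads of a gene, old and new, are called total RNA. Values are reads per 1000000 reads of Drosophila S2 RNA, the spike-in added to purified RNA, unless raw reads are named. A library is therefore set against its amount of RNA and not its number of cells. If the spike-in was added in proportion to that RNA, neither fewer cells nor less RNA per cell would show in total RNA. Otherwise fewer cells and less RNA per cell could not be told apart. The libraries of the 3 groups hold 14916671 to 17732216 total reads. The JQ1 libraries hold 342847 and 322771 labelled reads, whereas the AZ-5576 libraries hold 53503 and 62513. In total RNA all 10 K562 identity markers had reads under both drugs (summed level 6761 to 7399 CPM of human reads), and 24 marker genes of other blood and tissue lineages summed to 155.7 to 170.8 CPM.

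New nuclear RNA lay far apart between the drugs, and new mitochondrial RNA lay close. Labelled reads of nuclear genes other than copies of mitochondrial genes stood at 137.1 and 134.2 per 1000 spike-in reads under JQ1 and at 12.7 and 13.999 under AZ-5576, beside 213.7 and 217.7 under DMSO. The JQ1 libraries were thus 10.2 times as high as the AZ-5576 libraries, at 62.9% and 6.19% of the DMSO mean. Labelled reads of the mitochondrial genome (with its copies in the nucleus), which has a polymerase of its own, stood at 17.8 and 18.6 under JQ1 and at 16.6 and 16.4 under AZ-5576, a ratio of 1.11. They made up 56.6% and 53.9% of all labelled reads under AZ-5576, against 11.5% and 12.2% under JQ1. Total RNA of all genes gave 7570 and 8075 per 1000 spike-in reads under JQ1 and 8160 and 8609 under AZ-5576, a ratio of 0.933, with groups that did not overlap. A spike-in added in proportion to RNA would by itself set the sums of total RNA near level. With 2 libraries a side no permutation gives a two-sided p under 0.33, so these sums carry no test.

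**Figure D1:**
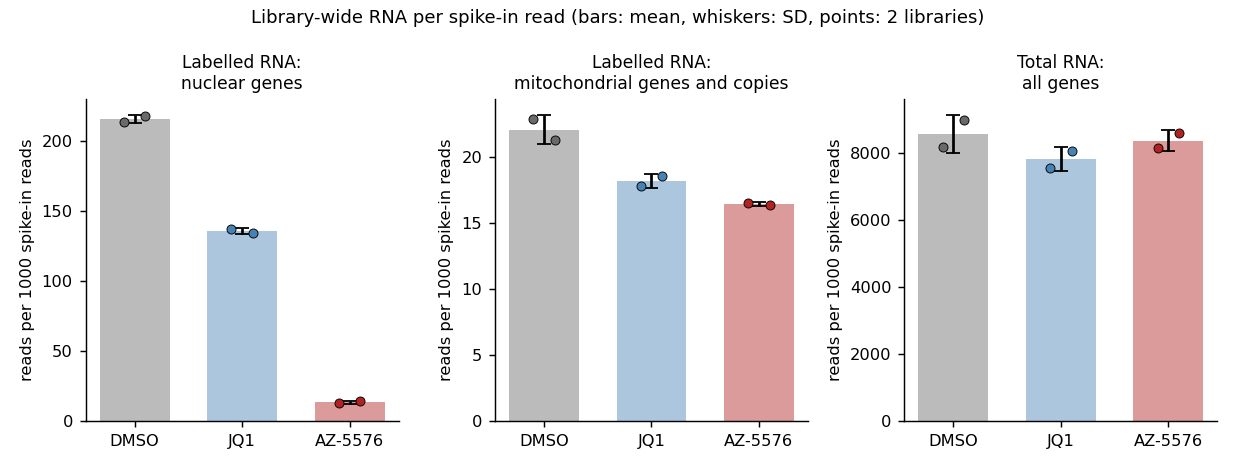
Reads per 1000 spike-in reads in the DMSO, JQ1 and AZ-5576 libraries, for labelled RNA of nuclear genes (left), labelled RNA of mitochondrial genes with their nuclear copies (middle) and total RNA of all genes (right). Bars are means, whiskers the SD and points the 2 libraries of a group, and the 2 drugs stand 10.2-fold apart on the left but near each other in the middle and on the right.

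Labelled RNA of most genes was higher under JQ1 than under AZ-5576. By edgeR's quasi-likelihood test with Benjamini-Hochberg adjustment, 6791 of 7996 genes were higher (84.9%) and 31 were lower (0.388%). Both AZ-5576 libraries held no labelled read for 3554 genes, so a fold for these is given as a lower bound, computed from a floor of 3 reads over the group. The median log2 difference over all genes tested was 4.87 as fitted and 3.02 with such genes at their bound. Scaled instead by TMM, which draws its scale from the human labelled reads and not the spike-in, the median fell to 2.97. The calls were then 26.3% of genes higher and 6.07% lower, or 81.3% higher among the calls in place of 99.55%. TMM thus did not set the median gene level, and a difference that turns under TMM is not one relative to that gene. Directions below hold per spike-in read, and those that turn under TMM are named with them.

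Single genes of the pause release machinery lay far apart between the drugs, while their list as a whole lay near all genes. HEXIM1, the inhibitor of P-TEFb in the 7SK particle (chr17:45148502-45152101, plus strand, GENCODE v29 on GRCh38), had 198 and 260 labelled reads under JQ1, none under AZ-5576 and 47 and 90 under DMSO. It was at least 137-fold higher under JQ1 than under AZ-5576 (adjusted p = 1.2e-45), and its 2 JQ1 libraries lay above both DMSO libraries (log2 difference 1.52, adjusted p = 3.7e-06). BRD2, itself a target of JQ1, stood at 530.1 and 514 under JQ1 and at 19.7 and 22.3 under AZ-5576, a log2 difference of 4.63 ± 0.22 (SE) with adjusted p = 7.5e-102. DMSO gave 426 and 415, below both JQ1 libraries, though JQ1 minus DMSO did not pass the test (adjusted p = 0.13). POLR2A, which encodes the largest subunit of RNA polymerase II, was at 56.9 and 62.9 under JQ1 and at 0.547 and 1.46 under AZ-5576 (log2 difference 5.78 ± 0.85 (SE), adjusted p = 1.5e-24), with DMSO between the drugs at 23.2 and 24.8. Of 33 tested genes of pause release, the 7SK particle and the BET proteins, 30 were higher under JQ1 and none lower, with a median log2 difference of 4.94 (3.62 with bounds). All genes tested gave 84.9% higher and medians of 4.87 and 3.02. PPP1R10, a nuclear subunit of protein phosphatase 1 that acts on polymerase-bound complexes, had 199 and 197 reads under JQ1 and none under AZ-5576, at least 119-fold apart, and stood above DMSO (45 and 56) under JQ1.

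Other genes with wide gaps had no labelled read in either AZ-5576 library. APLP2, a relative of the amyloid precursor protein, had 334 and 302 reads under JQ1 and was at least 191-fold higher (adjusted p = 2.9e-62). RRM2, the small subunit of ribonucleotide reductase, had 294 and 255 reads and was at least 164-fold higher. Both genes had many reads under JQ1, and the size of their gap is limited by the floor of the AZ-5576 libraries.

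Immediate early and short-lived genes made new RNA under JQ1 near the DMSO level (median log2 difference -0.21, against -0.85 over all genes) and little under AZ-5576 (median -5.40, against -5.94 over all genes). Of 42 tested members 41 were higher under JQ1 and none lower, with a median of 5.42 (3.89 with bounds). That count stands beside 84.9% of all genes higher, or 95.2% of those with at least 50 reads in 2 libraries. IER5, an immediate early regulator, had 540 and 413 reads under JQ1 and 0 and 6 under AZ-5576, beside 219 and 198 under DMSO (log2 difference 7.10 ± 0.65 (SE), adjusted p = 9.2e-76). JUN, a subunit of the AP-1 factor, stood at 38.4 and 41.7 under JQ1, 0.547 and 1.46 under AZ-5576 and 49.1 and 33.01 under DMSO. The JQ1 and DMSO libraries of JUN overlapped, and both AZ-5576 libraries lay below all of them (log2 difference 5.20 ± 0.87 (SE), adjusted p = 2.5e-17). MCL1, a short-lived inhibitor of apoptosis, gave the same order, with 110.3 and 100.3 under JQ1, 1.64 and 2.43 under AZ-5576 and 116 and 83.6 under DMSO (log2 difference 5.64 ± 0.59 (SE)). SERTAD1, a cofactor of cell cycle transcription, had 94 and 64 reads under JQ1, none under AZ-5576 and 29 and 19 under DMSO, at least 47.3-fold between the drugs. IER2 and MIDN kept more under AZ-5576, at 28.4 and 36.9 and at 15.9 and 24.3, against 358 and 279.7 and 217 and 183 under JQ1.

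Replication-dependent histone genes stood above DMSO under JQ1 and close to zero under AZ-5576. JQ1 minus DMSO was called higher for 10 of 14 (101 of all 7996 genes, 1.26%), and AZ-5576 minus DMSO lower for 11 of 14 (94.7% of all genes). All 14 were higher under JQ1 than under AZ-5576 (median 7.37, 5.45 with bounds), and 9 of them had no labelled read under AZ-5576. Of 57 histone genes matched, these 14 passed the filter of at least 10 reads in 2 libraries. A gene that passed it through its JQ1 reads and had few elsewhere could only come out higher, so the counts for these 14 lean that way. H3C10 had 146 and 133 reads under JQ1, 1 and 5 under AZ-5576 and 24 and 47 under DMSO (JQ1 minus AZ-5576 5.33 ± 0.73 (SE), JQ1 minus DMSO 1.74, adjusted p = 8.8e-22 and 5.7e-05). H2BC5 had 126 and 78 reads against 1 and 1, a ratio of 91.7 per spike-in read (95% counting interval 25.1 to 762.1). Histone genes of 1 class share much of their sequence, and H4C15, which overlaps H3C15, had 119 and 124 reads under JQ1, none under AZ-5576 and 6 and 4 under DMSO. Which copy each such read came from is uncertain.

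Housekeeping and ribosomal genes were higher under JQ1 by unequal amounts. GAPDH, a glycolytic enzyme, stood at 130.2 and 133 under JQ1, 2.19 and 3.40 under AZ-5576 and 147 and 144 under DMSO (log2 difference 5.51 ± 0.50 (SE)). ACTB, which encodes beta-actin, stood at 159 and 126, 7.66 and 11.7 and 170.4 and 153 (log2 difference 3.86 ± 0.31 (SE)). Of 76 tested cytosolic ribosomal protein genes 73 were higher under JQ1 and none lower, with a median of 2.91, and under TMM 23 were higher and 11 lower. RPS16, a protein of the small subunit, was at 287 and 316 and 44.9 and 49.04, a difference of 2.68 ± 0.19 (SE) per spike-in read that turned to -0.025 under TMM. All 38 heat shock and chaperone genes, 68 respiratory chain genes and 26 snoRNA hosts and other long noncoding RNAs tested were higher, as were 39 of 40 proteasome, 47 of 48 mitotic, 46 of 49 replication, 49 of 53 MYC target and 54 of 58 mRNA decay genes. With 84.9% of all genes higher, or 95.2% of those with at least 50 reads in 2 libraries, these counts single out none of the lists. Over the 25 lists with none lower, none of 805 members was lower at an unadjusted p under 0.05 in edgeR or by DESeq2's call with the same scaling. The snoRNA host SNHG3 stood at 1888 and 1619 under JQ1, 101 and 110.2 under AZ-5576 and 1771 and 1704 under DMSO (log2 difference 4.05 ± 0.15 (SE)).

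New RNA of the erythroid program was below DMSO under both drugs, and its drug difference was smaller than the median over all genes. Of 26 tested erythroid and megakaryocytic transcription factors 17 were higher under JQ1 and 1 lower (median 2.26, 2.11 with bounds, against 4.87 and 3.02 over all genes), and under TMM 3 were higher and 11 lower. JQ1 minus DMSO was called lower for 20 of them (28.6% of all genes), and AZ-5576 minus DMSO for 23 (94.7% of all genes). The list's median under AZ-5576 was -3.84, against -5.94 over all genes. MYB, a regulator of progenitor growth, had 18 and 8 labelled reads under JQ1, 3 and 11 under AZ-5576 and 98 and 106 under DMSO. The groups of the 2 drugs overlapped for MYB (log2 difference 0.74 ± 0.64 (SE), adjusted p = 0.26, -1.94 under TMM), and both lay far below DMSO. LMO2, a bridging factor of the GATA1 and TAL1 complex, had 8 and 5 reads under JQ1, 10 and 1 under AZ-5576 and 75 and 57 under DMSO, with a difference of 0.06 ± 0.77 (SE) and a 95% interval from -1.45 to 1.58 (-2.64 under TMM). The interval is wide because few reads were left under either drug.

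NFE2, a regulator of globin genes, was at 15.4 and 14.7 under JQ1, 9.85 and 3.88 under AZ-5576 and 142 and 137 under DMSO (log2 difference 1.15 ± 0.44 (SE), adjusted p = 0.0091, -1.55 under TMM). Without the second AZ-5576 library the NFE2 difference was 0.61 with adjusted p = 0.18, and in the 4 drug libraries alone adjusted p = 0.068. MYC, the growth regulator, had 40 and 6 reads under JQ1, 7 and 9 under AZ-5576 and 109 and 108 under DMSO. Its JQ1 libraries differed widely from each other and overlapped those of AZ-5576, and the call (log2 difference 1.35 ± 0.57 (SE), adjusted p = 0.018, -1.35 under TMM) rested on the first of them: without it the difference was -0.52 with adjusted p = 0.57. The MYC call was also lost without the first AZ-5576 library (adjusted p = 0.079), without the second (0.058), in the 4 drug libraries alone (0.066) and in DESeq2 with the same scaling (0.21).

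GATA2, a factor of stem and progenitor cells, stood at 107 and 93.2 under JQ1 and 43.8 and 52.9 under AZ-5576 beside 183 and 187 under DMSO (log2 difference 1.04 ± 0.24 (SE), adjusted p = 2.3e-05, -1.66 under TMM). TAL1, the master regulator of blood formation, had 20 and 18 reads under JQ1 and 1 and 2 under AZ-5576, a ratio of 11.4 per spike-in read (95% counting interval 3.61 to 57.6), and its call was lost under TMM (adjusted p = 0.50). The anti-apoptotic BCL2L1, a known target of STAT5, had 9 and 15 reads under JQ1, 13 and 3 under AZ-5576 and 69 and 61 under DMSO, and did not pass the test between the drugs (adjusted p = 0.54, -2.29 under TMM). Without the first AZ-5576 library it did, at 1.89 with adjusted p = 0.044. The fetal globin HBG1 was at 58.3 and 76.2 under JQ1, 8.21 and 5.34 under AZ-5576 and 426 and 453 under DMSO, a log2 difference of 3.31 ± 0.35 (SE) (under TMM 0.62 with adjusted p = 0.14). HBG2, its near-identical neighbour, was at 37.1 and 46.4, 22.98 and 26.2 and 448 and 419 (log2 difference 0.76 ± 0.26 (SE), adjusted p = 0.0049, -1.95 under TMM). Without the second JQ1 library the HBG2 difference was 0.59 with adjusted p = 0.078. Reads of HBG1 and HBG2 can be exchanged between them, so their unequal differences are uncertain.

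**Figure D2:**
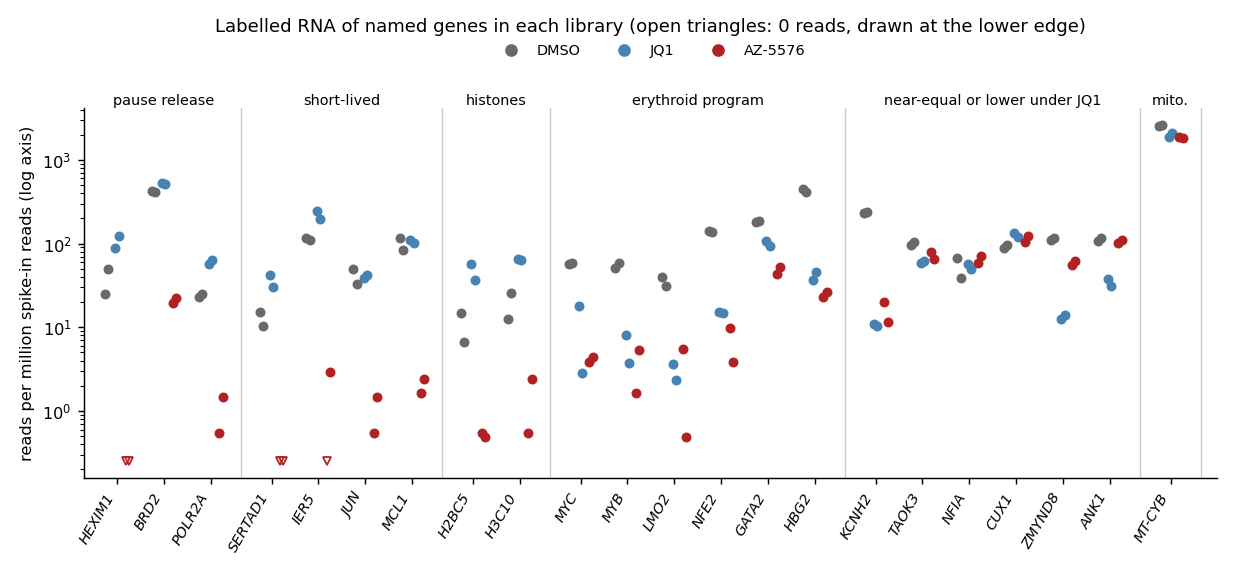
Labelled reads per 1000000 spike-in reads (log axis) of named genes in the 2 DMSO (grey), 2 JQ1 (blue) and 2 AZ-5576 (red) libraries, with open triangles for libraries with 0 reads. AZ-5576 libraries lie far below JQ1 libraries for HEXIM1, JUN or H3C10, overlap them for MYC, MYB and LMO2, and lie above them for ZMYND8 and ANK1.

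A small set of genes had as many labelled reads under AZ-5576 as under JQ1, or more. PFN1P2, a transcribed pseudogene of profilin whose reads may come from its parent gene, had 12 and 0 reads under JQ1, 57 and 48 under AZ-5576 and 2 and 1 under DMSO (log2 difference -3.28 ± 0.69 (SE), adjusted p = 1.8e-06, but 0.13 in DESeq2 with the same scaling). Only its AZ-5576 libraries stood clearly above DMSO. ZMYND8, a reader of acetylated chromatin (chr20:47209214-47356889, minus strand, a span of 148 kb), stood at 12.7 and 14.2 under JQ1, 55.8 and 61.2 under AZ-5576 and 109.7 and 116 under DMSO. The groups did not overlap, JQ1 being lower, with a log2 difference of -2.12 ± 0.32 (SE) and adjusted p = 4.1e-11. ANK1, the erythrocyte ankyrin (a span of 244 kb), had 37.96 and 30.8 under JQ1 and 101 and 109.7 under AZ-5576, a difference of -1.62 ± 0.25 (SE) with adjusted p = 4.9e-10. Its AZ-5576 libraries were near the DMSO libraries (108 and 117). RREB1, a zinc-finger factor of RAS signalling, stood at 11.3 and 8.05 under JQ1, 19.7 and 28.2 under AZ-5576 and 83.9 and 62.2 under DMSO, a difference of -1.30 ± 0.40 (SE) with adjusted p = 0.0013. NFIX, a nuclear factor I protein, was called lower at -1.18 with adjusted p = 0.032, but its JQ1 libraries held 24 and 2 reads, and without the second of them the difference was -0.33 with adjusted p = 0.61. The call was also lost without either AZ-5576 library (adjusted p = 0.063 and 0.096), in the 4 drug libraries alone (0.069), with no filter on low counts (0.062) and in DESeq2 with the same scaling (0.061).

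Of 1928 protein-coding nuclear genes with at least 50 labelled reads on average under DMSO, 30 had a 95% interval of JQ1 minus AZ-5576 that lay wholly under 1 on the log2 scale. Their median annotated span was 213 kb, against 23.9 kb over the 1928 genes. CUX1, a homeobox factor with a span of 468 kb, stood at 132 and 118 under JQ1, 103 and 125 under AZ-5576 and 88.1 and 96.8 under DMSO. NFIA, another nuclear factor I gene with a span of 598 kb, was at 56.5 and 49.7, 59.1 and 70.9 and 66.5 and 39.1. Both JQ1 libraries and 1 AZ-5576 library of NFIA lay inside the DMSO range, and the log2 difference between the drugs was -0.29, with a 95% interval from -0.81 to 0.22. The kinase gene TAOK3 gave -0.24 (interval -0.71 to 0.23), CMIP gave 0.17 (interval -0.28 to 0.62) and PRKCB, which encodes protein kinase C beta, gave 0.46 (interval 0.10 to 0.83, adjusted p = 0.016, but 0.060 without the first JQ1 library and 0.059 without the first AZ-5576 library). All 5 stayed near equal per spike-in read, but under TMM all 5 were lower under JQ1: CUX1 at -2.57, NFIA at -3.00, TAOK3 at -2.95, CMIP at -2.55 and PRKCB at -2.24. KCNH2, a potassium channel gene with a span of only 33.4 kb, was in the set for another pattern: it stood at 10.8 and 10.4 under JQ1 and 20.2 and 11.7 under AZ-5576, both far below DMSO at 229 and 238. The KCNH2 difference between the drugs was -0.57 (adjusted p = 0.13, -3.28 under TMM), and without the second AZ-5576 library it was -0.92 with adjusted p = 0.020.

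The labelled RNA left under AZ-5576 was largest in genes with an annotated span of 100 kb or more, and that left under JQ1 was not. Genes under 10 kb kept 69.8% ± 1.90 (SD, n = 2) of the DMSO level under JQ1 and 5.46% ± 0.171 under AZ-5576, summed over 1904 genes. In the 354 genes of 200 kb or more the shares were 63.2% ± 2.50 and 33.3% ± 2.59, so JQ1 was 12.8 times as high in the shortest class and 1.90 times in the longest. Below 100 kb the AZ-5576 share did not rise with span: it was 4.12% ± 0.264 at 10 to 30 kb and 4.00% ± 0.425 at 30 to 100 kb, where JQ1 was 14.8 and 15.001 times as high. Genes of 100 to 200 kb kept 9.90% ± 1.502 under AZ-5576 and 55.3% ± 1.009, the lowest of the 5 classes, under JQ1. Fixed classes in kb were set after the data were seen. In 5 classes of equal gene number the median log2 difference with bounds was 3.05, 3.17, 3.18 and 3.16 in the first 4 and 2.48 in the longest, which began at 79.2 kb. In protein-coding genes alone the share under AZ-5576 was 4.41% under 10 kb and 33.6% at 200 kb or more.

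**Figure D3:**
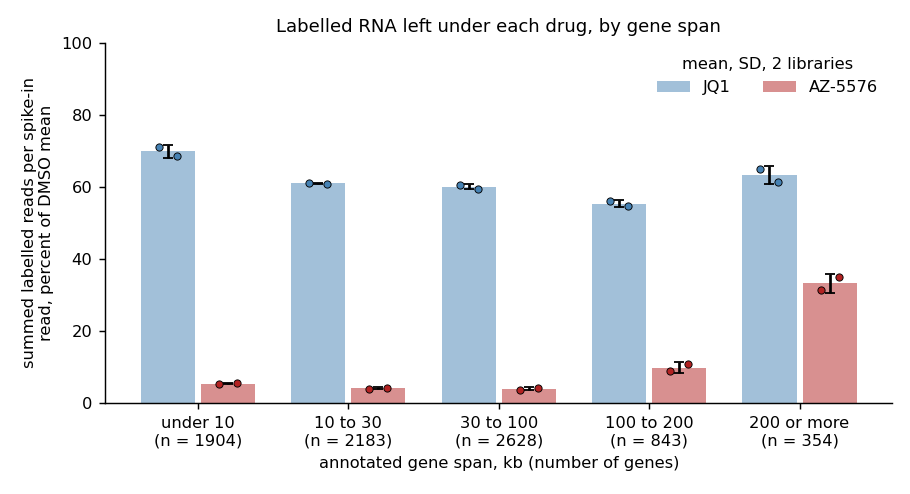
Labelled reads per spike-in read, summed over the genes of each class of annotated span and given as percent of the DMSO mean, for JQ1 (blue) and AZ-5576 (red). Bars are means, whiskers the SD and points the 2 libraries, and the AZ-5576 share stands at 5.46% in the shortest genes, 4.00% at 30 to 100 kb and 33.3% in the longest, beside 69.8%, 59.99% and 63.2% under JQ1.

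Labelled RNA of mitochondrially encoded genes stood near one level under both drugs. MT-CYB, the cytochrome b gene, stood at 1875 and 2079.7 under JQ1, 1853 and 1849.8 under AZ-5576 and 2564 and 2647 under DMSO (log2 difference 0.09 ± 0.13 (SE), adjusted p = 0.48), and MT-CO1 gave 0.28 ± 0.27 (SE) with adjusted p = 0.31. None of 11 tested members was called in either direction by edgeR's test per spike-in read, nor did any reach an unadjusted p under 0.05, while DESeq2 with the same scaling called 1 higher. Under TMM 10 of the 11 were lower.

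As a share of the new nuclear RNA, genes divided between the drugs. With the labelled reads outside the mitochondrial genome as library size, 1990 of 7996 genes held a larger share under JQ1 (24.9%) and 502 a smaller one (6.28%). Nuclear copies of mitochondrial genes held 27.7% and 25.05% of the labelled reads under AZ-5576, and with these also left out of the library size, a choice made after seeing them, 1024 were larger and 709 smaller. Of 26 erythroid transcription factors 3 held a larger and 11 a smaller share under JQ1 on the first of these scales, and 1 and 12 on the second. Of 14 histone genes 11 held a larger share on the first and 9 on the second, and none a smaller one on either.

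Total RNA differed between the drugs in far fewer genes. By edgeR's quasi-likelihood test 606 of 14572 genes were higher under JQ1 (4.16%) and 103 were lower (0.707%), with a median log2 difference of -0.05 over all genes. Among the 606, 390 differed by at least 1 on the log2 scale. For 572 of them (94.4%) both AZ-5576 libraries lay below both DMSO libraries, against 40.9% of all genes tested, and for 187 (30.9%) both JQ1 libraries lay above DMSO, against 7.31% of all. Both held for 153. Each drug was set against the same 2 DMSO libraries, so these shares are given side by side. The 606 were also selected through these same JQ1 and AZ-5576 libraries, which by itself raises both shares above those of all genes. The same holds for the counts by the test that follow, so none of them is separate support. By the test, 502 of the 606 were below DMSO under AZ-5576 (12.9% of all genes) and 58 under JQ1 (7.35% of all genes), and 75 were above DMSO under JQ1 (0.837% of all genes). In labelled RNA 552 of the genes higher in total RNA were called higher as well, and 6 others were tested there and not called. Of all genes tested in labelled RNA 84.9% were called higher, so most of this overlap goes with the shift over all genes.

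**Figure D4:**
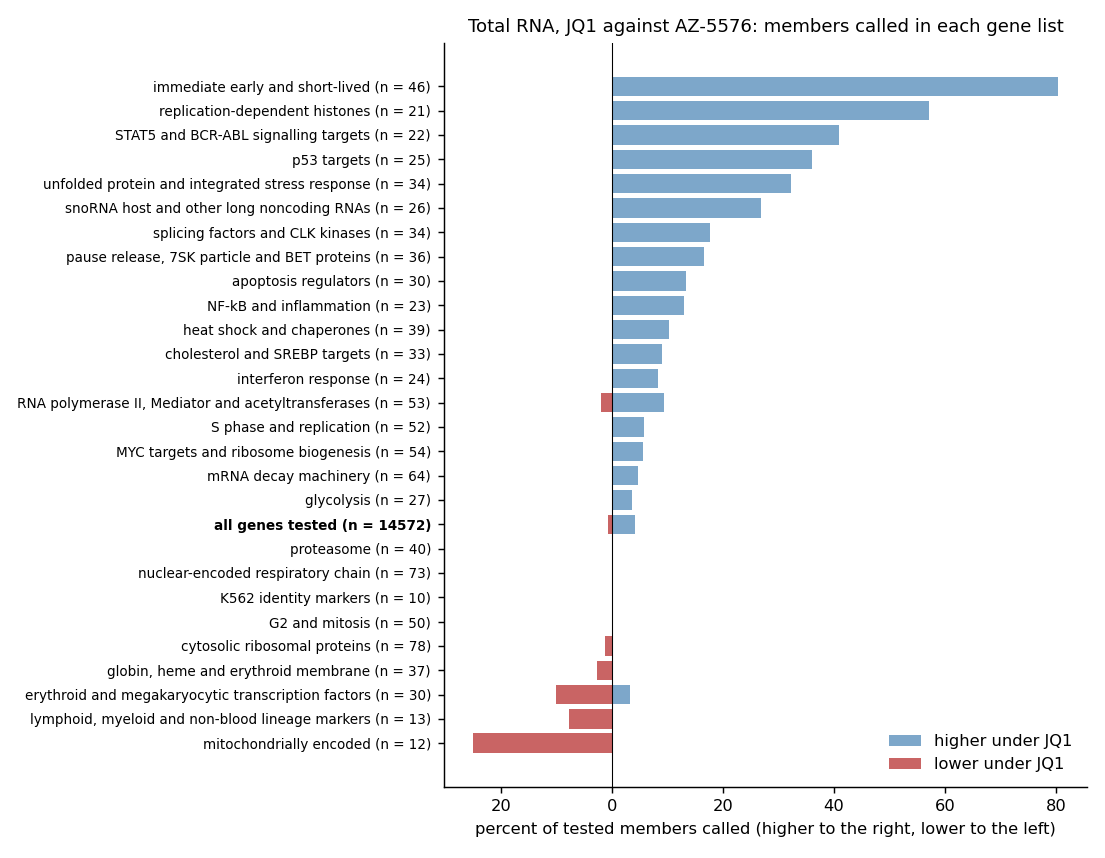
Percent of the tested members of each gene list called higher (right, blue) or lower (left, red) under JQ1 than under AZ-5576 in total RNA, with all genes tested in bold. Immediate early genes (37 of 46) and histones (12 of 21) stand at the top, and mitochondrially encoded RNA (3 of 12 lower) at the bottom.

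Immediate early and short-lived genes made up the clearest group: 37 of 46 tested members were higher under JQ1 and none lower, beside 4.16% and 0.707% of all genes. Their median was 1.88, against -0.05 over all genes. SERTAD1 stood at 249 and 186 under JQ1, 13.7 and 11.2 under AZ-5576 and 78.6 and 77.02 under DMSO, a log2 difference of 4.13 ± 0.27 (SE) with adjusted p = 1.8e-15. JQ1 thus lay above DMSO (1.48) and AZ-5576 below it (-2.65), with no overlap. EGR1, an inducible zinc-finger factor, gave the same order with 446 and 386, 57.4 and 54.9 and 197 and 155 (log2 difference 2.89 ± 0.24 (SE), adjusted p = 6.4e-08). For JUN the JQ1 libraries stood near DMSO, at 165 and 174 under JQ1, 24.6 and 34.96 under AZ-5576 and 144 and 158 under DMSO (log2 difference 2.50 ± 0.23 (SE)). MCL1 followed JUN, at 1391 and 1303, 512 and 605 and 1207 and 1334 (log2 difference 1.27 ± 0.11 (SE), adjusted p = 2.6e-11).

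Under AZ-5576 41 of the 46 members were called below DMSO (12.9% of all genes), while under JQ1 9 were called above DMSO (0.837% of all genes) and 6 below it (7.35%). ID1, an inhibitor of basic helix-loop-helix factors, stood at 419 and 362 under JQ1, 111 and 103 under AZ-5576 and 441 and 441 under DMSO (log2 difference 1.87 ± 0.14 (SE)). PIM3, a survival kinase gene counted among STAT5 targets, stood at 1096 and 1129, 254 and 282 and 946 and 1002 (log2 difference 2.05 ± 0.11 (SE)). Of 22 tested STAT5 and BCR-ABL targets 9 were higher and none lower (median 0.60), beside 4.16% and 0.707% of all genes.

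In total RNA, 6 of 36 pause release genes were higher under JQ1 and none lower, beside 4.16% and 0.707% of all genes. Their median was 0.06, against -0.05 over all genes, and the 6 were HEXIM1, BRD2, MEPCE, CCNT1, ELL and ELL2. HEXIM1 stood at 745 and 886 under JQ1, 295 and 313 under AZ-5576 and 439 and 524 under DMSO, a difference of 1.42 ± 0.13 (SE) with adjusted p = 8.8e-11. The 2 drugs moved it to opposite sides of DMSO, by 0.76 under JQ1 (adjusted p = 7.5e-05) and -0.66 under AZ-5576 (adjusted p = 0.00026). BRD2 gave the same order, at 3023 and 3365, 902 and 1002 and 2265 and 2312 (log2 difference 1.75 ± 0.10 (SE)). MEPCE, the methyl-capping enzyme of 7SK RNA, stood at 484 and 297 under JQ1, 173 and 185 under AZ-5576 and 449 and 375 under DMSO, so here JQ1 overlapped DMSO (log2 difference 1.12 ± 0.19 (SE), adjusted p = 0.0006). CDK9 itself had 28 and 24 reads under JQ1 and 19 and 19 under AZ-5576, too few to show a difference of this size (0.29 ± 0.50 (SE)).

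Histone reads were higher under JQ1 in total RNA as well. The libraries are 3′ mRNA sequencing, and how much of the histone RNA they capture was not tested. Of 21 tested replication-dependent histone genes 12 were higher than under AZ-5576 and none lower (median 0.79), beside 4.16% and 0.707% of all genes. Under JQ1 11 were called above DMSO (0.837% of all genes). H3C10 stood at 509 and 576 under JQ1, 235 and 279 under AZ-5576 and 277 and 368 under DMSO (log2 difference 1.08 ± 0.13 (SE), adjusted p = 2.5e-07). H2BC5 stood at 684 and 581, 412 and 439 and 389.9 and 417, with AZ-5576 near DMSO (log2 difference 0.57 ± 0.12 (SE), adjusted p = 0.0011). Among the widest gaps, H4C14 had 166 and 164 reads under JQ1, 2 and 2 under AZ-5576 and 8 and 11 under DMSO (log2 difference 6.13 ± 0.79 (SE), adjusted p = 9.6e-11), and its annotated span overlaps H3C14. BOLA1, whose span overlaps H2AC21, had 99 and 111 reads under JQ1, 0 and 4 under AZ-5576 and 1 and 5 under DMSO. Whether these reads belong to the gene or to its overlapping histone neighbour is uncertain. FAM222A, no histone gene, showed the same form with 65 and 95, 4 and 7 and 6 and 3 reads (log2 difference 3.69 ± 0.66 (SE)).

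Both noncoding hosts named here were far lower under AZ-5576 than under JQ1. MIR17HG, the host of the miR-17-92 cluster, stood at 328 and 303 under JQ1, 18.1 and 30.6 under AZ-5576 and 422 and 461 under DMSO (log2 difference 3.68 ± 0.20 (SE), adjusted p = 2.4e-18). SNHG12, a snoRNA host, stood at 1831 and 1813, 191 and 189 and 898 and 989, so that JQ1 lay above DMSO and AZ-5576 below it (log2 difference 3.26 ± 0.11 (SE), adjusted p = 1.3e-22). Of 26 tested snoRNA hosts and other long noncoding RNAs 7 were higher and none lower (median 0.24), beside 4.16% and 0.707% of all genes. Under TMM 12 were higher and 1 lower, beside 5.17% and 0.734% of all genes. Reads of a host cannot be told from those of the small RNAs within it.

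Stress and signalling lists moved in part. Of 34 tested genes of the unfolded protein and integrated stress responses 11 were higher and none lower (median 0.12), of 25 genes listed as p53 targets 9 (0.30) and of 34 splicing factors 6 (0.04). Whether p53 acts on the listed genes in these cells was not tested. Over all genes 4.16% were higher, and the median was -0.05. ATF4, the effector of the integrated stress response, stood at 2373 and 2898 under JQ1, 1174 and 1335 under AZ-5576 and 2218 and 2773 under DMSO (log2 difference 1.07 ± 0.12 (SE), adjusted p = 4.2e-07). DNAJB1, a co-chaperone of HSP70, stood at 987 and 1164, 236 and 211 and 671 and 697 (log2 difference 2.27 ± 0.12 (SE)), and 4 of 39 heat shock genes were higher. NFKBIA, the inhibitor of NF-kB, was below DMSO under both drugs, at 78.6 and 53.5 under JQ1, 16.96 and 21.8 under AZ-5576 and 177 and 149.6 under DMSO (log2 difference 1.76 ± 0.27 (SE)). IRF7, a master factor of interferon genes, stood at 107 and 145, 44.3 and 30.6 and 68.1 and 59.4 (log2 difference 1.75 ± 0.24 (SE), adjusted p = 1.0e-06).

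Smaller shares were higher in apoptosis regulators (4 of 30), NF-kB genes (3 of 23), cholesterol genes (3 of 33), interferon genes (2 of 24), replication genes (3 of 52), MYC targets (3 of 54), mRNA decay genes (3 of 64) and glycolysis (1 of 27), with none lower. The last 4 lists, at 5.77%, 5.56%, 4.69% and 3.70%, lay near the 4.16% of all genes and show nothing about their members. RNA polymerase II, Mediator and acetyltransferase genes gave 5 of 53 higher and 1 lower. None of 40 proteasome, 73 respiratory chain or 50 mitotic genes was called in either direction by edgeR's test. At an unadjusted p under 0.05 the counts lower were 2, 18 and 3, and DESeq2 with the same scaling called 2 respiratory chain genes lower. Over the 21 lists with none lower, 65 of 763 members were lower at an unadjusted p under 0.05, and DESeq2 called those 2 alone.

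A few erythroid factors were lower under JQ1 in the pool, by small amounts. Of 30 tested, 3 were lower under JQ1 (NFE2, LMO2 and MYB) and 1 was higher (ZBTB7A), with a median of -0.18, beside 0.707% lower and 4.16% higher over all genes. NFE2 stood at 565 and 509 under JQ1, 707 and 761 under AZ-5576 and 1219.7 and 1285 under DMSO (log2 difference -0.45 ± 0.11 (SE), adjusted p = 0.0095), both drugs lying below DMSO. Without the second JQ1 library its adjusted p was 0.090, and without the second AZ-5576 library 0.15. LMO2 stood at 207 and 167, 263 and 258 and 366 and 379 (log2 difference -0.48 ± 0.14 (SE), adjusted p = 0.04), and MYB at 952 and 902, 1182 and 1200.2 and 1333 and 1409 (-0.36 ± 0.10 (SE), adjusted p = 0.027). Both calls were lost without the second JQ1 library (adjusted p = 0.31 and 0.13), without the first AZ-5576 library (0.19 and 0.15), without the second (0.15 and 0.19) and in the 4 drug libraries alone (0.099 and 0.079). LMO2 was also lost under TMM (0.069), median-of-ratios (0.085) and the library size outside the mitochondrial genome (0.13). ZBTB7A, a repressor of fetal globin, stood at 1186 and 1104 under JQ1, 761 and 820.0 under AZ-5576 and 1901 and 2002 under DMSO (log2 difference 0.53 ± 0.10 (SE), adjusted p = 0.00058).

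MYC RNA stood at 59.7 and 60.6 under JQ1, 84.8 and 85.4 under AZ-5576 and 254 and 221 under DMSO. Both drugs lay far below DMSO, and the groups of the 2 drugs did not overlap, but their difference did not pass the test (-0.50 ± 0.20 (SE), adjusted p = 0.16). The fetal globins did not pass the test in the pool: HBG1 gave -0.15 (adjusted p = 0.51) and HBG2 -0.12 (adjusted p = 0.56), and 1 of 37 genes of globin, heme and membrane was lower. Without the second JQ1 library HBG1 did pass, at -0.35 with adjusted p = 0.044. Ribosomal protein genes gave 1 of 78 lower (1.28%, near the 0.707% of all genes) and none higher (median -0.18, against -0.05 over all genes). At an unadjusted p under 0.05 edgeR gave 30 of them lower, and without the second JQ1 library 11 were called lower.

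**Figure D5:**
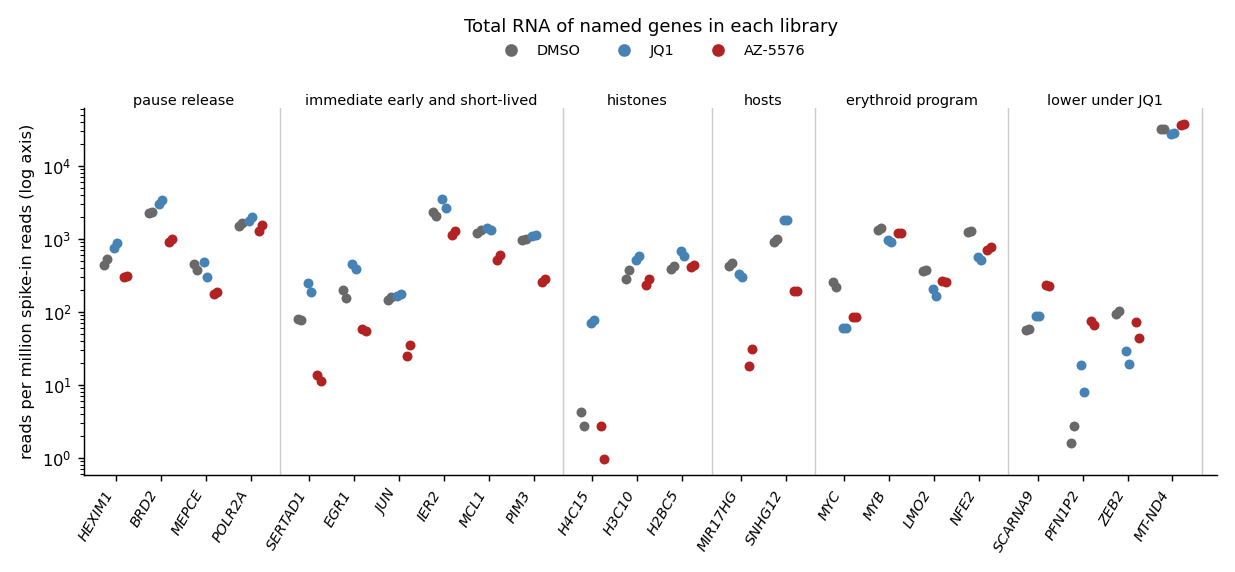
Total reads per 1000000 spike-in reads (log axis) of named genes in the 2 DMSO (grey), 2 JQ1 (blue) and 2 AZ-5576 (red) libraries. JQ1 and AZ-5576 libraries lie on opposite sides of DMSO for HEXIM1, BRD2, SERTAD1, EGR1 and SNHG12, and AZ-5576 libraries lie above both other groups for SCARNA9 and PFN1P2.

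Genes lower under JQ1 than under AZ-5576 included small RNAs that rose under AZ-5576. Of the 103, 31 differed by at least 1 on the log2 scale, 24 were called above DMSO under AZ-5576 (0.782% of all genes) and 32 below DMSO under JQ1 (7.35% of all genes). The 103 were selected through these same JQ1 and AZ-5576 libraries, which by itself raises both of these shares above those of all genes. Small RNA types were 5 of the 103 (4.85%), 11 of the 606 genes higher under JQ1 (1.82%) and 101 of all 14572 tested (0.693%). SCARNA9, a guide RNA of Cajal bodies that lies within CEP295, stood at 87.2 and 86.6 under JQ1, 232 and 227 under AZ-5576 and 55.9 and 57.8 under DMSO (log2 difference -1.40 ± 0.17 (SE), adjusted p = 1.4e-07). RNU6-918P, a U6 pseudogene, had 4 and 0 reads under JQ1, 83 and 68 under AZ-5576 and 1 and 2 under DMSO (log2 difference -5.32 ± 0.96 (SE)). U6 copies are near-identical, so its source is uncertain. How well 3′ mRNA sequencing captures small RNAs was not tested. PFN1P2 had 41 and 17, 138 and 136 and 3 and 5 reads (log2 difference -2.40 ± 0.41 (SE)).

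In ZNF507 and INTU the JQ1 libraries were the low ones. ZNF507, a zinc-finger gene, stood at 23.5 and 21.3 under JQ1, 60.7 and 65.5 under AZ-5576 and 59.1 and 84.2 under DMSO, with AZ-5576 near DMSO (log2 difference -1.49 ± 0.26 (SE), adjusted p = 0.0001). INTU, a planar polarity gene of cilia, had 17 and 19 reads under JQ1, 53 and 58 under AZ-5576 and 57 and 45 under DMSO (log2 difference -1.77 ± 0.41 (SE)). MT-ND4, a subunit of respiratory complex I, stood at 27122 and 27920.3, 35577 and 36809 and 32026 and 31635 with JQ1 below and AZ-5576 above the DMSO libraries (log2 difference -0.40 ± 0.09 (SE), adjusted p = 0.003, but 0.084 without the second AZ-5576 library), and 3 of 12 mitochondrially encoded genes were lower. The share lower in total RNA over all genes was 0.707%. APOA1, the liver apolipoprotein and 1 of 13 tested markers of other lineages, had no read under JQ1 or DMSO and 15 and 34 under AZ-5576, at least 18.2-fold lower under JQ1. It was the 1 called member of that list, and whether other cells contributed was not tested.

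In the total pool the median difference followed how much of a gene's RNA was new. Genes with a mean of at least 50 total reads under DMSO were set in 5 bins of equal number by the labelled share of their DMSO reads. The median log2 difference went from -0.16 in the bin with the smallest share through -0.11, -0.05 and 0.01 to 0.20 in the bin above 8.71% labelled, and the share called higher from 0.146% to 17.6%. The share called lower did not follow this order, at 1.41%, 0.53%, 0.53%, 0.24% and 1.12% from the lowest bin to the top. In the top bin total RNA stood at 83.7% ± 1.91 (SD, n = 2) of DMSO under JQ1 and at 67.5% ± 2.87 under AZ-5576. In the lowest bin it stood at 92.9% ± 4.18 and 103.3% ± 3.72. Opposite directions in the 2 layers, higher in labelled and lower in total RNA, occurred in 25 genes, and the reverse in none of those tested in both. Other genes lower in total RNA were lower in labelled RNA (8) or not called there (31). Over all genes 84.9% were called higher and 0.388% lower in labelled RNA, which leaves little room for the reverse. GALM, which encodes galactose mutarotase, had 4 and 6 labelled reads under JQ1, none under AZ-5576 and 28 and 27 under DMSO, while in total RNA it stood at 613 and 607, 822 and 887 and 769 and 809 (log2 difference -0.49 ± 0.11 (SE), adjusted p = 0.003, but 0.085 without the second AZ-5576 library).

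Promoter sequences of the genes called in total RNA were compared next. The 6 windows below are the 100 bases before the RefSeq start (GRCh38.p14), written along the gene's own strand, with TATAAA in capitals: HEXIM1 chr17:45148375-45148474 (plus strand), PPP1R10 chr6:30617244-30617343 (minus strand), ID1 chr20:31605189-31605288 (plus strand), ATF4 chr22:39520459-39520558 (plus strand), H3C10 chr6:27809951-27810050 (plus strand) and H2BC5 chr6:26158021-26158120 (plus strand).
HEXIM1: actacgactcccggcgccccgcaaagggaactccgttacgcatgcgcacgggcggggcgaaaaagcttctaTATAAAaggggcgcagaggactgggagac
PPP1R10: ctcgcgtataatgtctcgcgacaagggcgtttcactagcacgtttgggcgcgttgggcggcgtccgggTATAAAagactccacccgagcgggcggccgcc
ID1: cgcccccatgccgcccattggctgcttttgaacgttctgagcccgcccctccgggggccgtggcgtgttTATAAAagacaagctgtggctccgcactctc
ATF4: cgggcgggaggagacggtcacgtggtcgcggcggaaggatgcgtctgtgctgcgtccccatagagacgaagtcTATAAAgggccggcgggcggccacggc
H3C10: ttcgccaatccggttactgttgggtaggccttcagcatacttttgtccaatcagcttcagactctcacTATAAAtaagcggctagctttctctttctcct
H2BC5: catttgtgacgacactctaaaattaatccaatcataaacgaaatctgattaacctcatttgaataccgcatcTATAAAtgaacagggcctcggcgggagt
In each the motif begins 27 to 32 bases before the start. The 6 were chosen for carrying this motif, with the matches known, among genes called higher in total RNA, so they do not stand for the other genes called higher.

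Windows from 250 bases before to 50 after the start were searched on both strands in protein-coding genes with an entry in the RefSeq table (389 of 470 genes called higher in total RNA, 82.8%). TATAAA occurred in 13.1% of the genes called higher, 4.88% of those not called and 11.95% of all windows in the table. For the labelled RNA calls, for which the search was planned, TATAAA occurred in 5.21% of genes called higher and 3.59% of those not called. A box with this sequence on the gene's strand 20 to 40 bases before the start, a definition chosen after seeing the matches, was found in 36 of the 389 (9.25%), in 116 of 8745 genes not called (1.33%) and in 2.54% of all windows. Many of the 36 are histone genes, which are members of related families: H1-10, H2AC6, H2AC11, H2AX, H2BC5, H2BC8, H2BC11, H2BC21, H3-3B, H3C10 and H3C14. The share without the histone genes was not computed. CCAAT occurred in 50.1% of the genes called higher, 36.7% of those not called and 35.7% of all windows. GGGCGG occurred in 74.6%, 71.2% and 44.6%, CACGTG in 7.71%, 10.6% and 7.44%, AGATAA in 4.63%, 4.83% and 10.5%, and TGACTCA or TGAGTCA in 2.57%, 2.85% and 4.92%. The motifs may overlap each other, and a match describes letters, not a bound site. For genes called lower only 75.3% had an entry, so that comparison is void. TATAAA occurred in 9.84% of their 61 windows, also above the genes not called, and the box in 1 of the 61 (1.64%).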

How the data were processed

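SLAM-seq libraries (3′ mRNA sequencing of K562 RNA, per the labels' protocols) were deposited as labelled and total read counts per gene, with reads of the Drosophila spike-in counted separately. Per the submitters' processing notes bcl2fastq 2.17.1.14, Trim Galore 0.6.5, bedtools and the builds hg38 and dm6 were used. The aligner, the conversion caller and the strand setting are each not given in the sources used here, so overlapping genes are uncertain. The deposited counts of human genes were fitted as deposited with edgeR 4.0.16 (R 4.3.3, quasi-likelihood test, two-sided, Benjamini-Hochberg adjusted p under 0.05), with the spike-in sum as library size. All 10 libraries entered 1 fit per table, and genes needed at least 10 reads in at least 2 libraries. DESeq2 1.42.0, TMM and other filters were alternatives. Scripts were tested on simulated counts: a log2 difference of 2 was recovered in 83% of 100 changed genes in labelled RNA (7996 genes) and 100% in total RNA (14572 genes), and 1 in 14% and 90%. The simulated AZ-5576 libraries were given the mean rate of the JQ1 and DMSO libraries, far above their real labelled level. The labelled shares therefore do not give the power of the real labelled contrast. Intervals of read ratios cover counting error only. Gene spans come from GENCODE v29, promoters from RefSeq. Named genes were a panel of 30, up to 12 of the largest differences in each direction, up to 3 called members per list, up to 15 near-equal genes and up to 10 with opposite directions, some of which are not reported here. The members and the 27 gene lists were chosen with earlier results of these data known.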

Additional observations from a re-analysis of the deposited data

How the results depend on the processing

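Low labelled depth under AZ-5576 limits the size of any labelled difference, and 2 libraries a group limit every test. Values here are percents of the genes tested. Against 84.9% called higher and 0.388% called lower in labelled RNA, TMM gave 26.3% and 6.07%, DESeq2's median-of-ratios 29.7% and 4.71%, and a minimum of 50 reads, which tested 2361 of the 7996 genes, 95.2% and 0.297%. With no filter 17333 genes were tested and 40.9% and 0.15% called (7085 and 26 genes, against 6791 and 31), and in total RNA 28316 and 2.20% and 0.332% (623 and 94, against 606 and 103). Leaving out 1 library gave 77.8% to 80.4% higher and 0.325% to 0.463% lower. In total RNA (4.16% and 0.707%) the 4 drug libraries alone gave 0.309% lower. Leaving out 1 library there gave 2.55% to 4.19% higher and 0.192% to 1.36% lower, with the lowest values without the first AZ-5576 library (2.55% higher) and without the second (0.192% lower). As a share of nuclear labelled RNA (24.9% and 6.28%) the library size without nuclear copies, added after seeing the data, gave 12.8% higher and the 4 libraries alone 16.4%. Leaving out 1 library gave 10.4% to 20.9% higher and 4.05% to 5.67% lower, lowest in both without the second AZ-5576 library. All labelled reads together stood between 5.07 and 5.26 times under these omissions.

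The replicate block gave 83.5% higher and 0.338% lower in labelled RNA, 5.20% and 2.99% in total RNA and 21.9% and 5.80% on the nuclear scale. Same-numbered JQ1 and AZ-5576 libraries deviated with r = -0.17 over 51 genes in labelled RNA and 0.24 over 9792 genes in total RNA. The other pairs ranged from -0.24 to 0.32 in labelled and -0.07 to 0.24 in total RNA. In total RNA 6 of all 10 pairs were over 0.1, and JQ1 with AZ-5576 was the highest. Total reads per spike-in read were lower in the first library than in the second under JQ1, AZ-5576 and DMSO. With the block 435 genes were lower and 758 higher in total RNA, against 103 and 606 in the main fit. Whether same-numbered libraries share an effect was not tested, and the main fits do not allow for one. In total RNA the block also gave 33 of 78 ribosomal protein, 10 of 73 respiratory chain and 7 of 30 erythroid factor genes lower.

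Labelled directions turned under TMM for RPS16 (-0.025), MYB (-1.94), LMO2 (-2.64), NFE2 (-1.55), MYC (-1.35), GATA2 (-1.66), BCL2L1 (-2.29), HBG2 (-1.95), CUX1 (-2.57), CMIP (-2.55), PRKCB (-2.24), MT-CYB (-2.62) and MT-CO1 (-2.43). Median-of-ratios turned MYB (-1.59), LMO2 (-2.27), NFE2 (-1.16), MYC (-1.01), GATA2 (-1.28), BCL2L1 (-1.90), HBG2 (-1.56), CUX1 (-2.19), CMIP (-2.15), PRKCB (-1.86), MT-CYB (-2.22) and MT-CO1 (-2.05). Both draw their scale from the human labelled reads and not the spike-in. Neither set the median log2 difference over all genes level, which stayed at 2.97 under TMM and 2.33 under median-of-ratios. Without 1 library, MYC ranged from -0.52 (without the first JQ1 library) to 2.12; the cause was not tested.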
